A study of Homo sapiens with 17 samples.

Results

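The change of anti-ac4C pull-down over input after TDP43 knockdown was measured for 15165 of the 23368 genes in the count table of an acRIP-seq study of HEK293T cells. acRIP-seq recovers RNA that carries N4-acetylcytidine (ac4C) with an antibody and sequences it beside the RNA it was taken from. For each gene, log2 of IP (the anti-ac4C pull-down) over input in siTDP43 cells was set against log2 of IP over input in WT cells, and this difference is called the change below. A positive change means that more of a transcript was recovered relative to its input after the knockdown. All genes that passed a low-count filter were kept, and 47 lists of functional classes were followed through them. The comparison used 12 of 17 libraries, 3 each of WT input, WT IP, siTDP43 input and siTDP43 IP. The other 5, with 2 WT and 3 siTDP43 libraries, were pull-downs with control immunoglobulin G (IgG) and are given beside the results.

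HEK293T is a line of human embryonic kidney cells that grows in culture. All groups came from these cells and from polyadenylated RNA selected on oligo(dT) beads. The siTDP43 cells had received siRNA against TDP43, the RNA-binding protein encoded by TARDBP, and the WT labels name no control siRNA. Transfection, knockdown and any batch that follows the genotype therefore cannot be told apart. The labels do not say whether the replicates came from separate cultures, so the p-values measure only the spread between these libraries. The study lists 2 siRNA sense strands against TDP43, both of which match coding exons of TARDBP on chromosome 1 (hg19, plus strand, chr1:11073948-11073966 and chr1:11078873-11078891). They are shown because they define the perturbation, with the bases that match TARDBP in capitals and the added overhang in lower case:
siTDP43 sense strand 1: GGCUGGUAGAAGGAAUUCUtt
siTDP43 sense strand 2: GUCACAGCGACAUAUGAUAtt

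ac4C is made when NAT10, an RNA acetyltransferase, adds an acetyl group to cytidine, long known in tRNA, with the help of THUMPD1, and in the RNA of the small ribosomal subunit. In mRNA it has been linked to stability and translation. An antibody pull-down recovers fragments by affinity, so the ratio of IP to input is a relative measure within a library and depends on what else is pulled down. The study asked whether transcripts acetylated in WT cells lose the mark when TDP43 is depleted.

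TARDBP was checked first. Its input level was 150, 157 and 151 CPM (normalised read counts, scaled to a common library total with the TMM method, which sets most genes level between libraries) in the WT libraries and 98.7, 102 and 106 CPM in the siTDP43 libraries, so the groups did not overlap. Total counts lay between 27718784 and 36583436 for the WT inputs and between 24542434 and 31030950 for the siTDP43 inputs. Pull-downs held 19615316 to 21066215 counts with WT and 8610070 to 15736165 with siTDP43 RNA. IgG libraries were shallower, with 9022250 to 9466855 counts in WT and 3013989 to 3436811 in siTDP43. A count of 0 allows up to 3 counts, which is 0.122 to 0.133 CPM in WT IP and 0.223 to 0.374 CPM in siTDP43 IP, and this limit covers counting error only. The neurofilament gene NEFL, a marker of this line, was at 63.9 to 192 CPM in the inputs, and LIN28B was at 27.8 to 60.1 CPM. PAX2 was low, at 0.0631 to 1.37 CPM. PTPRC, HBB and PECAM1, markers of blood and endothelial cells, had no count in any input. Of the other genes listed as markers of other cells, CD3E reached 0.171 CPM and ALB 0.119 CPM. COL1A1, also listed there, was not near 0, at 1.21 to 7.74 CPM.

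Both directions were common. The change passed the test for 67.8% of the genes (adjusted p under 0.05, edgeR quasi-likelihood F test, two-sided, Benjamini-Hochberg over the 15165 genes). Of these, 4770 genes (31.5% of those tested) gained IP over input and 5511 (36.3%) lost it. More than 2-fold changes were called for 3123 genes upward and 4113 downward. The median change was -0.19, with quartiles of -1.58 and 0.91. In 2723 genes at least 1 of the 4 groups held at most 3 counts in every library, so that a fitted fold has no firm size. Among the other 12442 genes the median was 0.00, with 4504 higher and 4343 lower. These values are relative to the TMM scaling. Scaling by total count moved the median of all genes to -0.48 with 3811 higher and 6593 lower, and removing a trend over GC content moved it to 0.08 with 5703 higher and 4578 lower. Class medians below are to be read against the -0.19 of all genes, and they carry no test of their own.

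Most genes called gained IP over input in these classes: cytosolic ribosomal proteins, hosts of small nucleolar RNAs, subunits of oxidative phosphorylation, mitochondrial ribosomal proteins, proteasome subunits and proteins of the ER translocon. Most genes called lost it in others: Golgi tethers, centrosome scaffolds, chromatin remodellers, SMC proteins, kinesins, matrix proteins and zinc finger proteins. The IgG pull-down over input moved with many of these classes. After the knockdown, IgG over input was higher in 27.0% of all genes and lower in 37.4%, with a median of -0.48, and its part in the class results was not tested. IP and IgG changes are taken over the same inputs, so they share those libraries.

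**Figure D1:**
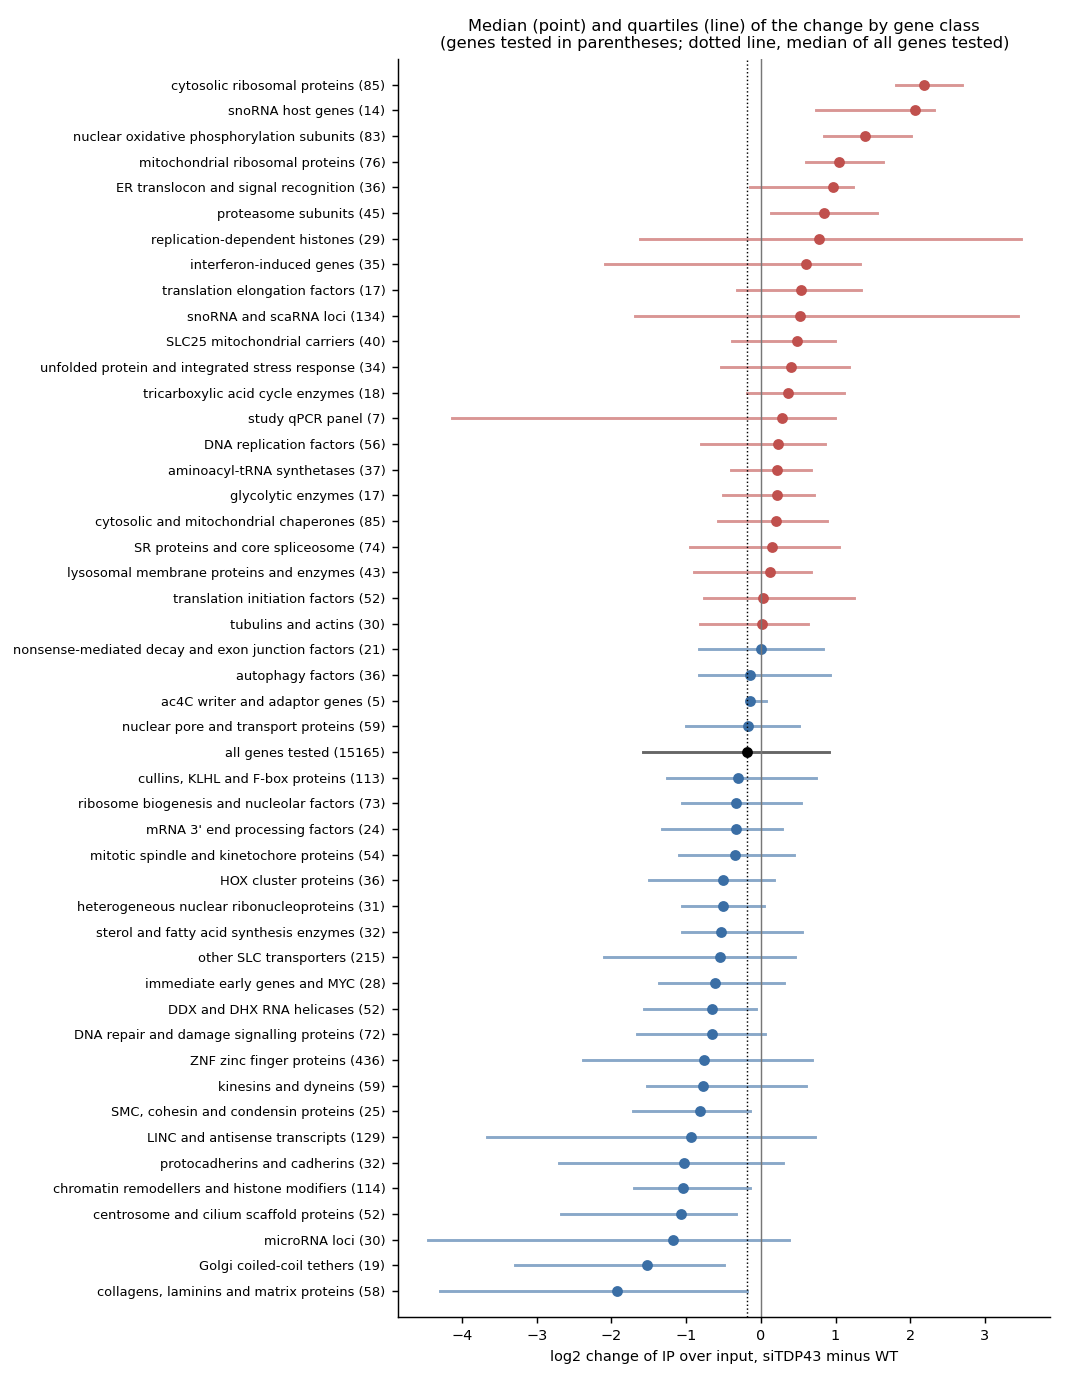
Log2 change of IP over input (siTDP43 minus WT, horizontal axis) for each gene class. Points are medians and lines run between the quartiles, with the number of genes tested in parentheses. Cytosolic ribosomal proteins (median 2.18) stand at the top and matrix proteins (median -1.92) at the bottom, around a median of -0.19 for all genes.

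Single transcripts show what such changes look like in the libraries. RRBP1 (chromosome 20, 17594323 to 17662928) encodes a ribosome-binding protein of the endoplasmic reticulum. It had 15.8, 16.8 and 16.6 CPM in WT input and 1144, 1182 and 1228 CPM in WT IP. After the knockdown it had 5.36, 4.28 and 2.98 CPM in input and 12.6, 12.6 and 6.98 CPM in IP. The high values were confined to the 3 WT IP libraries, and all groups were apart. The change was -4.79 (SE 0.200, edgeR adjusted p 5.04e-22), made of a fall of 6.74 in IP and of 1.95 in input. IgG held 77.7 and 98.9 CPM in WT and 36.7, 43.7 and 36.6 CPM in siTDP43, more than the siTDP43 IP libraries did. The study predicted ac4C within a stretch of RRBP1 in a coding exon (hg19, minus strand, chr20:17602344-17602364). It measured acetylation on that exon and used oligos of the site to test protein binding. The stretch is shown 5′ to 3′ with the bases that the study's mutant oligo replaced in capitals:
RRBP1 site: caccCgcCagCTCCCgCggag

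EEF1A1 (chromosome 6, 74225473 to 74230755), the elongation factor that brings aminoacyl-tRNA to the ribosome, moved the other way. Its input level was 4949, 5915 and 5555 CPM in WT and 8092, 8258 and 7414 CPM in siTDP43. Its IP level was 935, 1179 and 1243 CPM in WT and 8478, 6736 and 6112 CPM in siTDP43. In WT it was thus depleted in IP, and in siTDP43 IP stood level with input. The change was 2.13 (SE 0.118, adjusted p 2.52e-18). EEF1A1, GAPDH and the ribosomal protein genes have many processed pseudogenes, so their reads cannot all be assigned with certainty.

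PPP4R1L (chromosome 20, 56807833 to 56884495) had the largest rise among well-counted genes, and it rests on near absence in WT IP. WT input held 218, 265 and 282 reads and WT IP held 4, 0 and 0. In siTDP43, input held 115, 114 and 105 reads and IP held 68, 69 and 24. No IgG library held a read. The change was 7.23 (SE 0.646, adjusted p 6.75e-12), and with 4 reads in WT IP its size is loosely bounded.

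**Figure D2:**
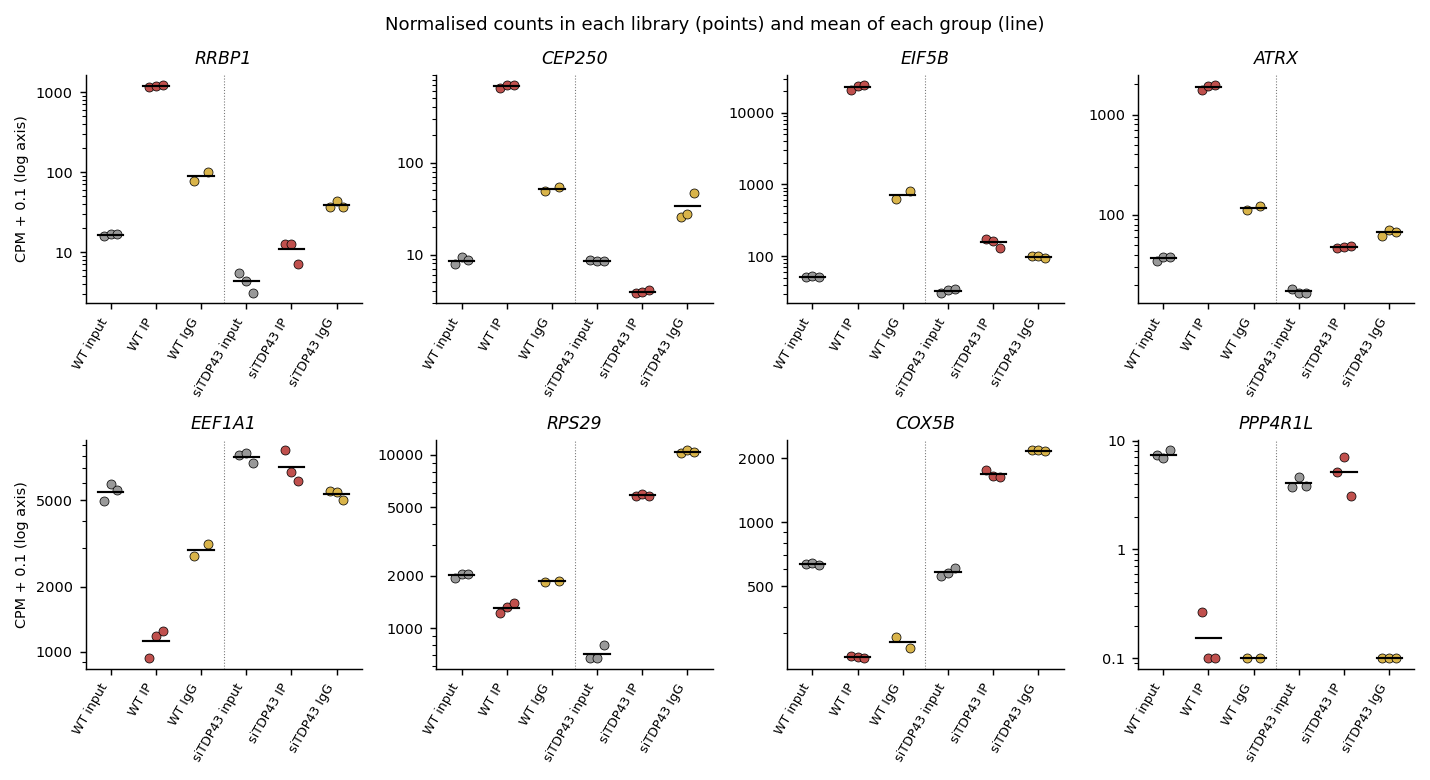
Normalised counts (CPM plus 0.1, log axis) of 8 transcripts in each library, with a line at the mean of each group. RRBP1, CEP250, EIF5B and ATRX are highest in the 3 WT IP libraries, whereas EEF1A1, RPS29 and COX5B rise from WT IP to siTDP43 IP and RPS29 and COX5B are highest in siTDP43 IgG.

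Of the 7 transcripts that the study followed by qPCR, 3 were higher and 3 lower, and the study chose them on these samples. RBBP6, a ubiquitin ligase of mRNA 3′ end processing, fell by 4.44 and UPF3B, an exon junction factor of nonsense-mediated decay, fell by 3.83. LAMP1, a lysosomal membrane glycoprotein, had a change of 0.65 with overlapping replicate values (adjusted p 0.0182). It was 0.35 with total count scaling, and 0.54 and 0.40 without siTDP43 input replicate 2 or 3, none of which passed. The change of the mRNA-decay protein ZFP36L2 was 0.29 (adjusted p 0.302) and turned to -0.01 with total count scaling. GAPDH, a glycolytic enzyme, rose by 1.33.

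Cytosolic ribosomal proteins had the highest class median, 2.18. Of 85 genes tested, 80 were higher (94.1%, against 31.5% of all genes) and 3 were lower. The class median of log2 IP over input lay between -0.73 and -0.66 in the 3 WT IP libraries and between 1.54 and 1.65 in the 3 siTDP43 IP libraries, so depletion turned into enrichment with no overlap. The small subunit (median 2.35, 31 of 32 higher) and the large subunit (2.10, 48 of 52 higher) behaved alike in direction. RPS29, a small-subunit protein, had 1215, 1318 and 1401 CPM in WT IP and 5774, 5958 and 5784 CPM in siTDP43 IP, while its input fell from 1946, 2054 and 2062 to 669, 669 and 795 CPM. Its change was 3.66 (SE 0.0793, adjusted p 1.15e-30). RPS2, at 3.64, differed in how it got there: its IP difference was 0.35 and its input difference -3.29. Over the class, the median input difference was -0.74 and the median IP difference 1.46. The 3 that fell, named after their values were seen, were RPL7L1 (-0.91), RPS10 (-0.86) and RPL36A (-0.62). RPL7L1 is a relative of RPL7 with a role in ribosome assembly, and exons of RPS10 and RPL36A overlap other genes. The IgG change had a median of 1.97 in this class, with 78 higher and 3 lower.

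The small nucleolar RNA hosts listed are noncoding transcripts, such as GAS5 and the SNHG genes, whose introns hold snoRNAs. Many other snoRNAs lie in introns of protein-coding genes. Of 14 tested, 11 were higher and 2 lower, with a median of 2.06. SNHG8 rose from 117, 115 and 110 CPM in WT IP to 582, 619 and 610 CPM in siTDP43 IP, a change of 2.90. GAS5, whose exons overlap another gene, rose by 2.73, with an input difference of -1.89 and an IP difference of 0.83. The IgG change of these hosts had a median of 1.58, with 11 higher and none lower. The snoRNA and scaRNA loci themselves were mostly at the floor: 51 of 134 tested had no group there, and their median of 0.52 was 0.32 without siTDP43 IP replicate 3 and 1.44 with a mean of at least 50 counts.

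Other classes of the translation machinery were divided. Elongation factors had 11 of 17 higher and 4 lower (median 0.54), with EEF1B2, an exchange factor for EEF1A, at 2.84. Of initiation factors 23 rose and 22 fell among 52, and the median of 0.03 changed sign with total count scaling (-0.27) and 3 other alternatives. EIF3K (2.05) and EIF3E (2.10), subunits of the eIF3 complex, rose. EIF5B fell by 6.55. EIF3A and EIF4G1, named after their values were seen, fell by 3.23 and 2.36. The list also holds EIF2C genes, an older name for Argonaute proteins, 3 of which fell (EIF2C1, EIF2C3 and EIF2C4, at -1.31, -2.51 and -3.02). Aminoacyl-tRNA synthetases had 18 higher and 12 lower among 37, with a median of 0.22 that was -0.08 with total count scaling. CARS2, a mitochondrial synthetase, rose by 2.23. Ribosome biogenesis factors leaned down, with 40 lower and 21 higher among 73 and a median of -0.33. BMS1, a GTPase of small-subunit assembly, had 92.4, 107 and 107 CPM in WT IP and 18.4, 15.6 and 24.2 CPM in siTDP43 IP, and its change was -3.56.

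Mitochondrial classes rose as well. Of 76 mitochondrial ribosomal proteins 65 were higher and 7 lower (median 1.04), and of 83 nuclear-encoded subunits of oxidative phosphorylation 72 were higher and 3 lower (median 1.40). Every respiratory complex had a positive median: complex I, the NADH dehydrogenase, 1.32 (35 of 38 higher), complex III 2.02 (9 of 11), complex IV, cytochrome c oxidase, 1.68 (10 of 12) and complex V, the ATP synthase, 1.02 (16 of 18). Complex II had 4 genes tested, 2 of them higher. COX5B, a subunit of complex IV, showed the pattern of the class. Its IP level was 235, 233 and 229 CPM in WT and 1768, 1656 and 1633 CPM in siTDP43, with inputs of 556 to 643 CPM throughout. Its change was 2.99 (SE 0.0765, adjusted p 1.33e-28). NDUFS4 of complex I changed by 3.0. In the inputs the class differed by a median of -0.13, so most of the change lay in the IP libraries. IgG over input also rose, by 3.13 for COX5B and 3.17 for NDUFS4, and its part was not tested. Among the 3 lower genes, NDUFA4L2 and COX6B2, named after their values were seen, had a group at the floor.

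MRPL23, of the large mitochondrial subunit, had the highest change of its class, 4.36, with IP at 104, 93.1 and 105 CPM in WT and 402, 388 and 351 CPM in siTDP43 and an input that fell by 2.44. MRPL49, whose exons overlap another gene, fell by 2.75. IgG changes were unlike in size between both mitochondrial classes: the median was 1.34 for oxidative phosphorylation, where 60 were higher and 8 lower, and 0.49 for mitochondrial ribosomal proteins, where 41 were higher and 21 lower. Their difference was not tested. Of the SLC25 carriers of the inner membrane 22 were higher and 7 lower among 40 (median 0.49). SLC25A33, a pyrimidine nucleotide carrier, rose by 3.80, with an input difference of -2.42 and an IP difference of 1.38. Among 18 enzymes of the tricarboxylic acid cycle 10 were higher and 4 lower (median 0.36), with SUCLA2, a subunit of succinyl-CoA ligase, at 2.79. Glycolytic enzymes were split, 8 higher and 6 lower among 17, and their median of 0.22 became -0.07 with total count scaling. LDHB and PGK1 rose by 1.73 and 1.61. PKM2 and ENO2, named after their values were seen, fell by 1.09 and 1.59.

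Classes of protein quality control differed by subfamily. Among proteasome subunits 30 of 45 were higher and 4 lower (median 0.85). All 16 genes of the 20S core tested, the chamber that cuts proteins, were higher (median 1.63). In the 19S regulatory particle, which unfolds substrates, 12 of 20 were higher and 2 lower (0.49), and among activators and assembly factors 2 were higher and 2 lower of 9. PSMB7, a core subunit whose exons overlap another gene, had 22.8, 24.4 and 22.5 CPM in WT IP against 169, 135 and 157 CPM in siTDP43 IP, and changed by 2.22. Chaperones as a whole had 37 higher and 24 lower of 85, with a median of 0.20 that was -0.09 with total count scaling, while their IgG change was higher for 19 and lower for 44. Of chaperonin and prefoldin subunits, which fold actin and tubulin, 12 of 14 were higher (median 0.84). Genes picked by the symbol prefix HSP, which covers more than HSP70, HSP90 and HSP60, had 12 higher and 6 lower of 25 (median 0.33). J-domain proteins, partners of HSP70, had 10 higher and 13 lower among 38, with a median of -0.20 that turned to 0.18 when the GC trend was removed. IgG changes had medians of 0.64 in the 20S core, -0.05 in chaperonin and prefoldin and -0.84 in J-domain proteins.

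In the ER translocon and signal recognition class, of 36 genes 24 were higher and 7 lower (median 0.96), and their IgG change had a median of -0.14, with 16 higher and 16 lower. TRAM1, which helps nascent chains into the membrane, had 11, 13.1 and 12.6 CPM in WT IP and 156, 162 and 146 CPM in siTDP43 IP, a change of 2.71. OSTC of the oligosaccharyltransferase rose by 2.22. RRBP1 fell the most of this class, and KTN1, another long coiled-coil protein of the ER named after its values were seen, fell by 2.59. The unfolded protein and integrated stress response had 18 higher and 11 lower among 34 (median 0.40). XBP1, a transcription factor of that response, changed by 3.31 with IP at 162, 166 and 170 CPM in WT and 166, 167 and 166 CPM in siTDP43. Its input fell from 334, 339 and 333 CPM to 34.3, 34.4 and 32.7 CPM, so the ratio rose while the pull-down stayed where it was. TRIB3, at 2.85, had the same form, with an input difference of -3.17 and an IP difference of -0.32.

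**Figure D3:**
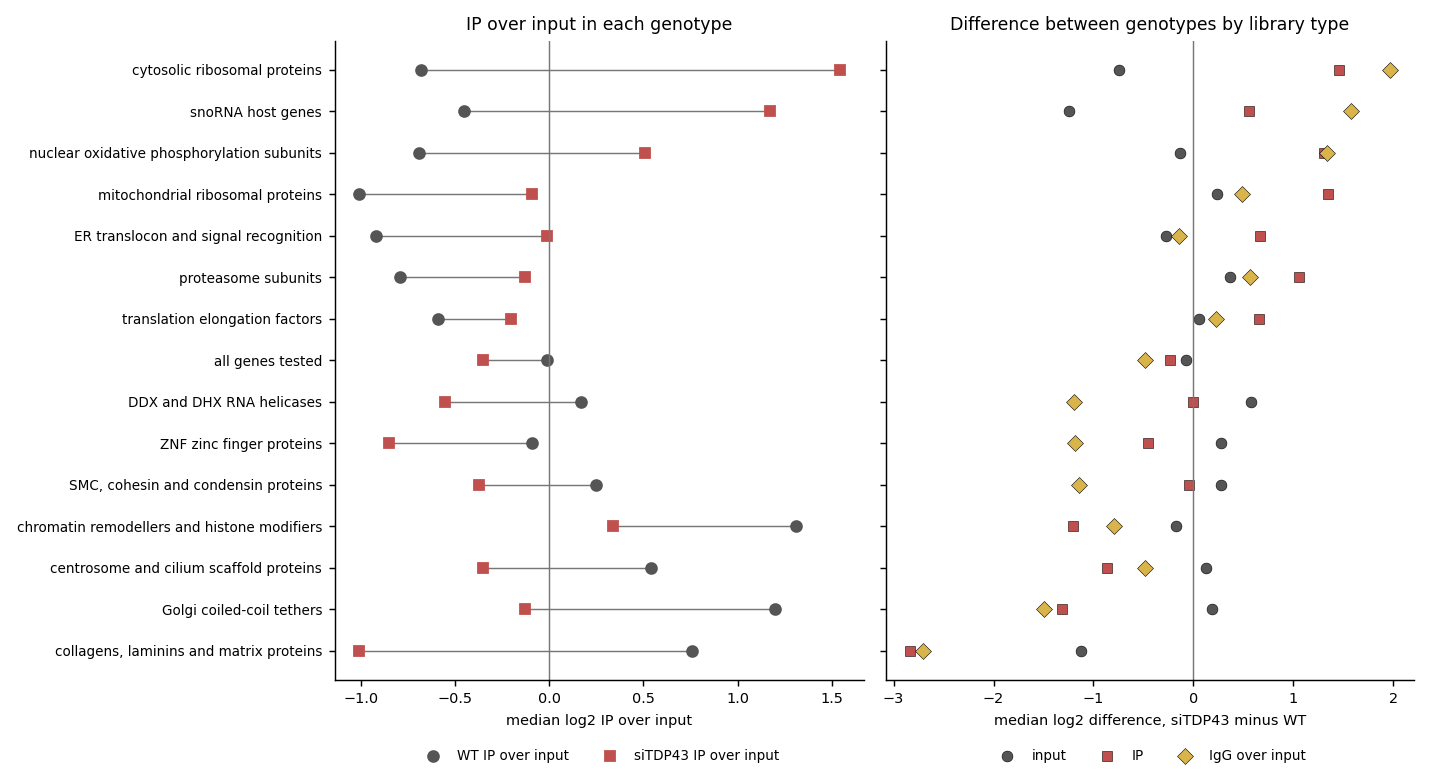
Left, median log2 IP over input of each class in WT (circles) and siTDP43 (squares). Right, median log2 difference between siTDP43 and WT in input (circles), in IP (squares) and in IgG over input (diamonds). Cytosolic ribosomal proteins go from -0.68 to 1.54 and chromatin remodellers from 1.31 to 0.34, and the IgG diamonds of ribosomal proteins (1.97) and matrix proteins (-2.71) lie on the same side as the IP squares.

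Golgi coiled-coil tethers had the lowest median of the classes in which no gene had a group at the floor. These long proteins, the golgins, capture vesicles at the Golgi. Of 19 tested 15 were lower (78.9%, against 36.3% of all genes) and 2 higher, with a median of -1.53. The class median of log2 IP over input was 1.01 to 1.29 in the WT IP libraries and -0.37 to 0.12 in the siTDP43 IP libraries. GOLGB1 (giantin, chromosome 3, 121382046 to 121468614) had 19.5, 21.8 and 20.4 CPM in WT input and 1964, 2201 and 2248 CPM in WT IP, against 9.08, 10.2 and 9.40 and 11.7, 11.5 and 12.7 CPM in siTDP43. Its enrichment was all but gone, and the change was -6.37 (SE 0.139, adjusted p 1.15e-30). GOLGA4 fell by 5.83. GOLGA5, named after its values were seen, rose by 1.37. IgG over input was lower for 16 of the 19 and higher for none, with a median of -1.50.

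Centrosome and cilium scaffolds followed, with 36 of 52 lower and 7 higher (median -1.07). CEP250, which links the centrioles (chromosome 20, 34043223 to 34099803), had 651, 700 and 701 CPM in WT IP and 3.72, 3.85 and 3.99 CPM in siTDP43 IP. Its input values overlapped between genotypes, with 7.80, 9.21 and 8.55 CPM in WT and 8.71, 8.47 and 8.33 CPM in siTDP43. The change was -7.47 (SE 0.179, adjusted p 1.87e-29), and the IgG change was -0.60. CEP152, a scaffold of centriole duplication, fell by 6.48. CEP proteins as a family had 19 lower and 3 higher of 28 (median -0.91). The HAUS subunits of augmin, a complex that branches microtubules, had 4 higher and 1 lower of 8, and their median of 0.29 was -0.01 with total count scaling.

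Kinesins had 25 lower and 8 higher of 40 (median -1.04), whereas dynein and dynactin had 10 higher and 5 lower of 19 (median 0.32). KIF20B, a mitotic kinesin, fell by 3.18. Spindle and kinetochore proteins had 28 lower and 16 higher of 54 (median -0.34). CENPE, a kinetochore motor, had 2407, 2531 and 2564 CPM in WT IP and 29.0, 32.2 and 22.4 CPM in siTDP43 IP, and fell by 5.62. NUMA1, which anchors spindle poles and whose exons overlap other genes, fell by 5.97. Among SMC, cohesin and condensin proteins, the ring complexes of chromosomes, 17 of 25 were lower and 5 higher (median -0.81), with SMC5 at -3.86 and SMC3 at -2.53. SMCHD1, named after its values were seen, rose by 2.66. The IgG change of the SMC class had a median of -1.14, with 19 lower and 2 higher.

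Among chromatin remodellers and histone modifiers, of 114 tested 75 were lower (65.8%) and 12 higher, with a median of -1.04. ATP-dependent remodellers, which move nucleosomes, had 30 lower and 1 higher of 39, and their median went from 2.33 in WT to 0.53 in siTDP43. Histone methyltransferases had 15 lower and 2 higher of 21 (-0.79), demethylases 9 and 3 of 15 (-1.09), and bromodomain proteins 6 and 1 of 9 (-1.07). ATRX, a remodeller of heterochromatin (chromosome X, 76760356 to 77041719), had 1759, 1938 and 1974 CPM in WT IP and 46.6, 48.0 and 48.6 CPM in siTDP43 IP. Its input was 34.5, 38.2 and 37.9 CPM in WT and 18.2, 16.6 and 16.5 CPM in siTDP43, and its change was -4.20 (SE 0.101, adjusted p 1.89e-29). The IgG change of ATRX was 0.30. BAZ2B fell by 4.56. KAT8, an acetyltransferase named after its values were seen, rose by 3.40, and its input fell by 3.04. Over the class the IgG change had a median of -0.79, with 65 lower and 26 higher.

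**Figure D4:**
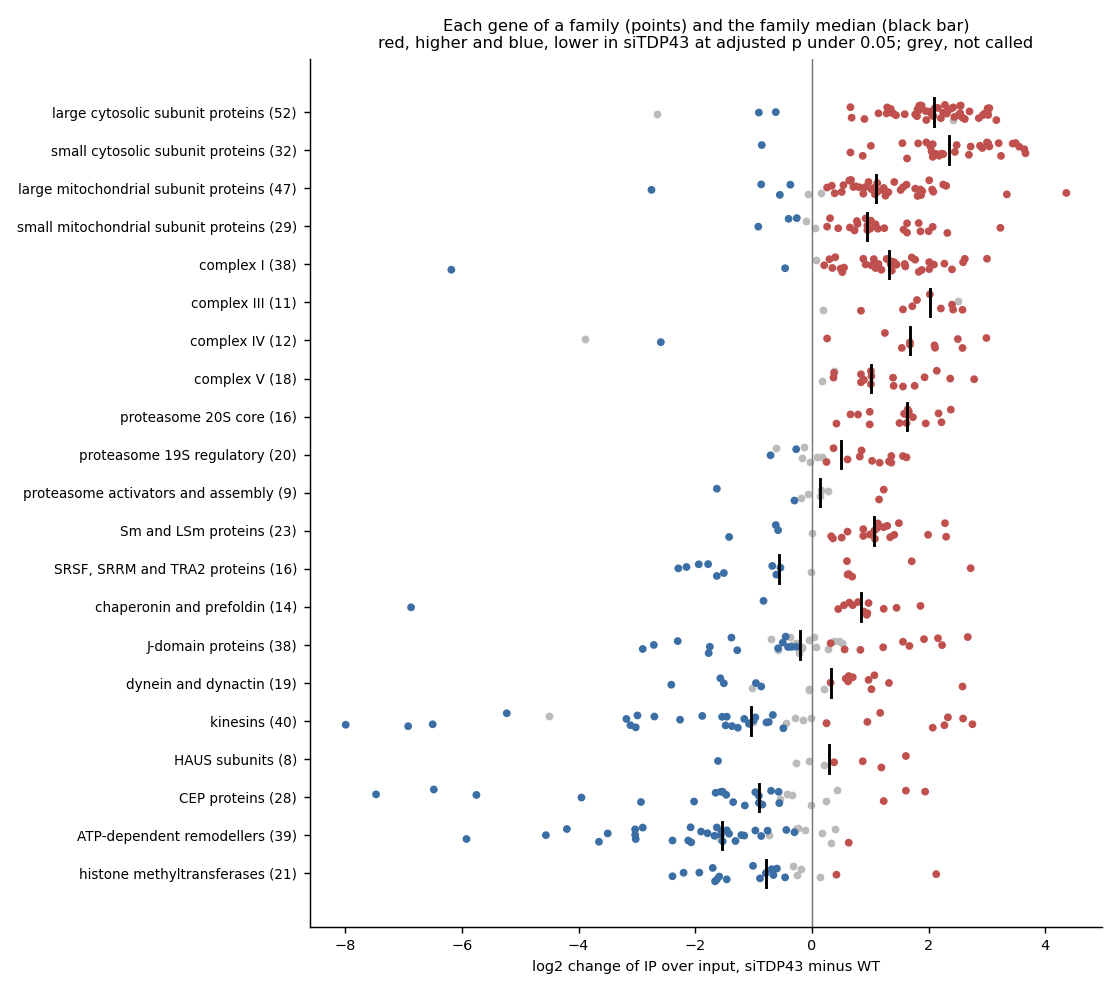
Log2 change of IP over input of every gene tested in 21 families, 1 point a gene, with a black bar at the family median. All 16 genes of the proteasome 20S core lie above 0, and 30 of 39 ATP-dependent remodellers are called lower. CEP proteins have a median of -0.91 and HAUS subunits one of 0.29, which is -0.01 with total count scaling.

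Genes of DNA repair had 40 lower and 16 higher of 72 (median -0.66). RAD50 of the break-sensing MRN complex fell by 3.46, from 153, 166 and 166 CPM in WT IP to 18.6, 19.4 and 15.9 CPM in siTDP43 IP. MDC1, a mediator of the damage signal that the table places at several positions, fell by 3.91. DNA replication factors were close to even, with 27 higher and 18 lower of 56, and their median of 0.23 became -0.06 with total count scaling. RPA3, the smallest subunit of the single-strand binding complex, rose by 2.53, although its exons overlap another gene. ORC5 rose by 2.14.

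RNA-binding classes were mixed. DDX and DHX helicases had 33 lower and 9 higher of 52 (median -0.65), with DHX8 and DDX46, both of the spliceosome, at -3.04 and -2.60. Heterogeneous nuclear ribonucleoproteins had 19 lower and 7 higher of 31 (median -0.51). HNRNPM rose in input from 116, 118 and 122 CPM to 330, 314 and 299 CPM while IP went from 667, 728 and 775 CPM to 428, 377 and 370 CPM, and its change was -2.29. SYNCRIP, at -2.24, had an input difference of 1.56 and an IP difference of -0.68. In the spliceosome, Sm, LSm and other snRNP proteins picked by symbol had 19 higher and 3 lower of 23 (median 1.07), with SNRPE at 2.30. SRSF, SRRM and TRA2 proteins, which carry arginine-serine domains, had 9 lower and 6 higher of 16 (median -0.57). SRSF9, whose exons overlap another gene, rose by 2.72, with an input difference of -2.17 and an IP difference of 0.55. SRSF1, named after its values were seen, fell by 2.15.

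Factors of nonsense-mediated decay had 8 higher and 9 lower of 21. UPF2 fell by 3.68, with IP at 152, 177 and 182 CPM in WT and 14, 11.5 and 9.72 CPM in siTDP43. MAGOH and MAGOHB, small proteins of the exon junction complex named after their values were seen, rose by 1.58 and 1.57, and exons of MAGOH overlap another gene. Nuclear pore and transport proteins had 18 higher and 27 lower of 59 (median -0.17), close to the median of all genes. TPR of the nuclear basket, whose exons overlap another gene, fell by 4.09 and NUP214 fell by 2.99, while NUP37, named after its values were seen, rose by 2.59. Among mRNA 3′ end processing factors 6 were higher and 10 lower of 24 (median -0.33).

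Cell surface and matrix transcripts had the lowest median, -1.92, but were thinly counted. Of 58 matrix genes 33 were lower and 7 higher, and in the 37 with no group at the floor the median was -0.82. Collagens had a median of -2.65, but -0.69 in the 17 of 31 with no group at the floor, of which 4 were higher and 8 lower. Their median was -3.57 without siTDP43 IP replicate 3 and -1.50 with a mean of at least 50 counts. COL14A1 fell by 6.28 and COL27A1 by 5.26. Input and IP both fell in this class, by medians of 1.12 and 2.84, and the IgG change had a median of -2.71. Protocadherins and cadherins had 15 lower and 3 higher of 32 (median -1.03), with CELSR2 at -4.41. ZNF zinc finger proteins, the largest family of DNA-binding repressors, had 206 lower and 102 higher of 436 (47.2% and 23.4%, against 36.3% and 31.5% of all genes). Their median was -0.76, or -0.47 with no group at the floor. ZNF445, which takes part in imprinting, fell by 6.98.

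HOX genes were enriched in IP in both genotypes. Their class median of log2 IP over input was 1.96 to 2.06 in the WT IP libraries and 1.18 to 1.38 in the siTDP43 IP libraries. The change was lower for 15 of 36 (41.7%, against 36.3% of all genes) and higher for 6. Their median of -0.51 was -0.04 with the GC trend removed. HOXC8 had 56.1, 58.3 and 63.6 CPM in WT IP and 8.99, 9.72 and 11.7 CPM in siTDP43 IP over inputs of 0.820 to 1.74 CPM, and fell by 2.77. HOXD9 fell by 3.57. The IgG change of HOXD9 was 3.97, opposite in sign.

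Interferon-induced genes had 10 higher and 10 lower of 35, and 10 higher and 4 lower of the 22 with no group at the floor, with a median of 0.61 against 0.23 when genes at the floor were set to their bound. Input and IP both fell, by medians of 1.45 and 2.99. IFITM1 rose by 1.62 and USP18 by 1.58. ISG15, named after its values were seen, rose by 1.39 with an input that fell by 5.61 and an IP that fell by 4.22. Replication-dependent histones had 11 higher and 4 lower of 29. Their median of 0.78 was 0.40 without siTDP43 IP replicate 3 and 1.98 with a mean of at least 50 counts. HIST1H4C had 50.3, 49.9 and 50.2 CPM in WT IP and 261, 273 and 286 CPM in siTDP43 IP, and changed by 2.98. Histone genes have near-identical copies, and most of their mRNA lacks a poly(A) tail.

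Further classes were mixed or thinly counted. Sterol and fatty acid enzymes had 17 lower and 9 higher of 32 (median -0.53). SCAP, the escort protein of the sterol-sensing transcription factors, fell by 1.88. Lysosomal proteins had 17 higher and 15 lower of 43 (median 0.12, and -0.18 with total count scaling, with a sign change also without siTDP43 input replicate 3 or siTDP43 IP replicate 1), with the protease CTSF at 2.74. Autophagy factors had 15 higher and 13 lower of 36, and their median of -0.14 was 0.18 when the GC trend was removed. ATG5 rose by 1.93. Tubulins and actins had 14 higher and 11 lower of 30, with a median of 0.02 that was -0.28 with total count scaling. Immediate early genes had 13 lower and 5 higher of 28, with a median of -0.62 that was -0.24 with no group at the floor and -0.19 with the GC trend removed. SLC transporters outside SLC25 had 91 lower and 46 higher of 215, with a median of -0.55 that was -0.24 and -0.18 in the same settings. Cullins, KLHL and F-box proteins had 42 lower and 29 higher of 113 (37.2% and 25.7%, against 36.3% and 31.5% of all genes). Their median of -0.31 was -0.12 with no group at the floor. Of 129 LINC and antisense transcripts 48 were lower (37.2%, against 36.3% of all genes) and 24 higher (18.6%, against 31.5%). Their median was -0.94, or -0.19 with no group at the floor. Only 30 of 1240 microRNA loci were tested, 24 of them with a group at the floor.

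Of the 5 genes of the ac4C writers and adaptors studied, 1 rose, 1 fell and 3 did not pass the test. NAT10 fell by 1.10 (SE 0.146, adjusted p 2.78e-08). Its IP level was 50.4, 63.8 and 60 CPM in WT and 60.3, 51.7 and 64.2 CPM in siTDP43, and its input rose from 50.7, 52.3 and 51.6 CPM to 116, 108 and 111 CPM. THUMPD1, its tRNA adaptor, had a change of 0.07 (adjusted p 0.755). For TARDBP the change was -0.18 (adjusted p 0.182). The poly(C)-binding protein PCBP1 had -0.15 (adjusted p 0.143). PCBP2 rose by 0.65, with exons that overlap the antisense gene MAP3K12, so that reads of both cannot be told apart without the strand setting.

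Among all genes with a mean of at least 100 counts, no group at the floor and replicate values that did not overlap, 3977 were higher and 3777 lower. The 10 largest rises were those of PPP4R1L, C10orf54, DHDH, SFTA3, RAD51B, CBWD6, CRYM, KCNS3, SLC35A3 and GPR64, at 7.23 to 5.02. RAD51B, a protein of homologous recombination (chromosome 14, 68286496 to 69062738), had 20.4, 21.0 and 21.3 CPM in WT input and 17.6, 17.3 and 17.6 CPM in siTDP43 input. Its IP level was 0.413, 0.735 and 0.266 CPM in WT and 23, 21.5 and 23.2 CPM in siTDP43. C10orf54 (VISTA), an immune checkpoint protein, rose by 6.11 with an input that fell by 2.96. CBWD6 belongs to a family of near-identical copies, so its reads are uncertain.

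The 10 largest falls were those of LRRC37A4, CEP250, ZC3H13, GOLGA2P5, ZNF445, YJEFN3, EIF5B, CEP152, BOD1L and NSRP1, at -8.12 to -6.42. LRRC37A4 shares exons with other genes of its family. ZC3H13, a partner of the m6A methyltransferase (chromosome 13, 46536314 to 46626894), had 7215, 7799 and 7919 CPM in WT IP and 35.1, 32.6 and 30.6 CPM in siTDP43 IP. Its inputs were 23, 23.5 and 26.8 and 15.4, 19.3 and 14.1 CPM, and its IgG change was -4.28. EIF5B, the GTPase that joins ribosomal subunits at initiation (chromosome 2, 99953834 to 100016728), had 20718, 23340 and 24415 CPM in WT IP and 173, 164 and 130 CPM in siTDP43 IP. It remained above its siTDP43 inputs of 30.4, 34 and 34.3 CPM.

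Several of these transcripts hold long runs of purines (A and G), a feature looked for after the values were seen. Among the 10 largest falls, the longest exon run was 54 bases in EIF5B, 37 in BOD1L, 32 in ZC3H13 and 26 in NSRP1. It was 11 in YJEFN3, 16 in CEP152 and 18 to 21 in the others. Of the 10 largest rises, C10orf54 had 26 and the others 10 to 16. The longest run within a coding exon is shown for picked transcripts that fell and, for contrast, for picked ones that rose or belong to classes that rose. UPF3B, RBBP6 and GOLGB1 are not among the 10 largest falls. Sequences are hg19, 5′ to 3′ on the transcript strand, with the run in capitals and flanks in lower case. For runs longer than 30 bases only the first 30 bases are printed, and the full lengths were 54 in EIF5B, 32 in ZC3H13, 38 in UPF3B and 33 in RBBP6. The first 5 fell:
EIF5B: AAGAAGAAAAAGAAAGGAGAAAAGGAAGAA
ZC3H13: GAGAAAGAGAAGAGAGAGAGAGGGAGAGAG
UPF3B: GAGAGAAGAAAAGAGAGAAGAAAGGAGGAG
RBBP6: AAGAAGAAGAAGAAAAAGAAGGAAAAGAAA
GOLGB1: tcccAGGAGGAAGAGGAGAAtatt
EEF1A1: aaaatGGGAAAGGAAAAGActcat
RPLP0: ttgaagccAAGGAAGAGtcggagga
COX7C: gccactatGAGGAGGGccctggga

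They lie at chr2:99980140-99980169 (plus strand), chr13:46549605-46549634 (minus), chrX:118975187-118975216 (minus), chr16:24583566-24583595 (plus), chr3:121410921-121410944 (minus), chr6:74229729-74229752 (minus), chr12:120634613-120634637 (minus) and chr5:85913922-85913945 (plus), in that order. Among the 100 largest falls of well-counted genes, 21.0% had a run of at least 25 purines in their exons, against 1.0% of the 100 largest rises and 9.33% of all genes tested. Repeats of GAA were counted on the transcript strand as GAAGAA in any of its 3 frames, with overlaps, and the densest 10% of genes had at least 5.25 per kb of exon. Of the largest falls 31.0% were among them, and of the largest rises 6.0%. Over all genes called with no group at the floor, the shares were 12.9% of those lower and 10.1% of those higher. In 5 equal groups by GAA density the median change was -0.10, -0.26, -0.18, -0.17 and -0.24, with no steady course. Counts of runs and repeats describe the letters in the exons, and longer exons hold longer runs. TCCCAGCT was found in the exons of 26.5% of genes called lower and 13.7% of genes called higher with no group at the floor, against 19.7% of all genes, and TGTGTG, a TDP43-type UG repeat, in 75.1%, 59.2% and 65.9%. Longer exons also hold any short motif more often, and the genes called lower had longer exons (medians of 3954 and 2296 bases). The part of exon length in these shares was not tested.

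Exon length differed between the directions. The median was 3954 bases in genes called lower and 2296 in genes called higher, with no group at the floor, against 3024 in all genes tested. In 5 equal groups by exon length, with medians of 1196, 2136, 3024, 4298 and 6977 bases, the median change fell from 0.71 to 0.05, -0.32, -0.55 and -0.73. The second of these was -0.23 with total count scaling, and the others kept their sign under every alternative tried. In the group with the shortest exons 52.2% of genes were higher and 17.1% lower, and in the longest 18.9% and 50.4%. IgG over input fell over the same groups, from 0.63 to -0.16, -0.69, -1.05 and -1.34. Median exon length was 826 bases in cytosolic ribosomal proteins, 959 in oxidative phosphorylation, 4882 in Golgi tethers and 5771 in chromatin remodellers. In change, Golgi tethers (median -1.53) lay below chromatin remodellers (-1.04). Histones, with a median of 473 bases, lay below ribosomal proteins, but only 15 of 29 histones had no group at the floor. The part of exon length in the class differences was not tested. Ribosomal proteins stood above and Golgi tethers below the median of the length group that their class median falls in (0.71 and -0.55).

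**Figure D5:**
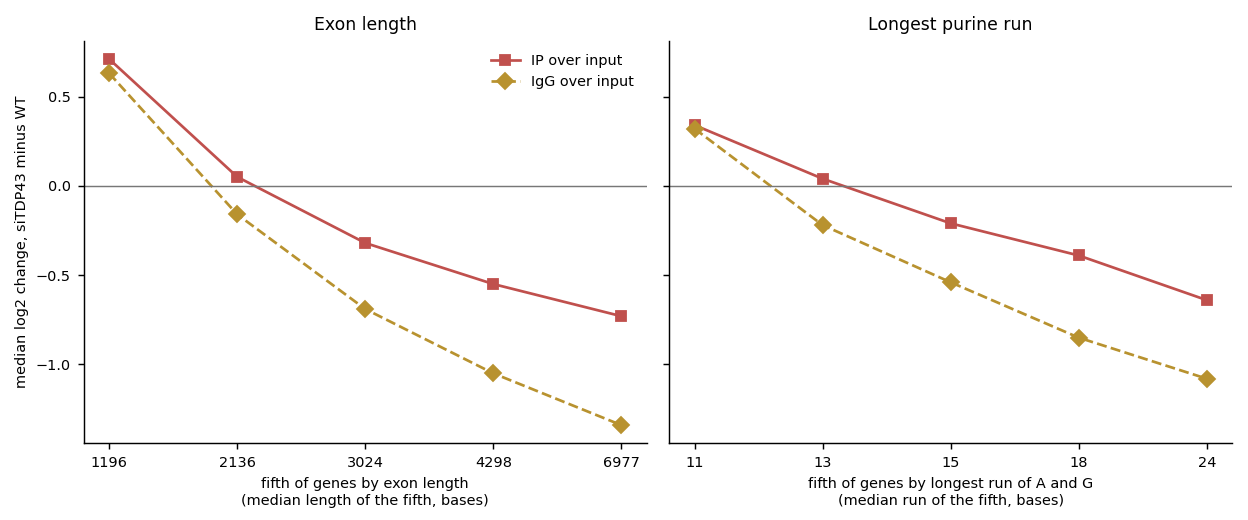
Median log2 change (siTDP43 minus WT) of IP over input (squares) and IgG over input (diamonds) in 5 equal groups by exon length (left) and by the longest purine run (right), with 3033 genes in each group. Both measures fall from the shortest to the longest group, from 0.71 to -0.73 for IP and from 0.63 to -1.34 for IgG by exon length.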

How the data were processed

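Raw counts per gene, as the authors deposited them, were used for 17 libraries of polyadenylated RNA. Per the methods and the submitters' processing notes, reads were trimmed with Trim Galore 0.6.7, aligned with STAR 2.7.10a and counted with featureCounts 2.0.2. The build was hg19 by the methods and the positions. The strand setting, annotation release and counting of pairs are not given in the sources used here. Between 81.3% and 95.9% of counts from 1 to 20 were even, so mates appear to have been counted singly, without molecular identifiers.

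Genes were filtered with filterByExpr (minimum count 10) and fitted in edgeR 4.0.16 (R 4.3.3) with TMM scaling and a quasi-likelihood model over all 17 libraries in 6 groups. The change is the interaction of IP over input with genotype. Of 23368 genes, 4188 had no count. DESeq2 1.42.0, other scalings and filters, a GC trend, replicate blocks and leaving out each library were alternatives. In simulated counts of 14968 genes with 200 changed, 91% of 2-fold and 100% of 4-fold changes were recovered, with 6.83% false calls. These counts were drawn from the fitted model, with balanced changes placed only in genes above the floor in all 6 groups. In the data 67.8% of genes were called and 2723 had a group at the floor, so the rates may not carry over.

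Named genes were RRBP1, EEF1A1, PPP4R1L, the qPCR panel, the writers and adaptors, the 10 largest changes in each direction, and the 2 largest of each list in its more frequent direction. The last 2 kinds needed a mean of at least 100 counts, no group at the floor (at most 3 counts in every library) and non-overlapping replicate values. Members and lists were chosen with earlier results of these data known. Library values of a class are medians over its genes of log2(CPM + 0.1) in each IP library minus the mean of that genotype's inputs. Exon features came from the hg19 sequence. Protein features were not computed. Results of a few genes that the naming rule or the exceptions would give are not reported here.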

Additional observations from a re-analysis of the deposited data

How the results depend on the processing

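The genes higher and lower numbered 4702 and 5812 with the DESeq2 Wald test, 4570 and 5698 with DESeq2 size factors, 3811 and 6593 with total count scaling, 4759 and 5523 with no low-count filter, 4305 and 4261 when genes averaged 50 counts or more, 4932 and 5713 with the 12 input and IP libraries, and 5703 and 4578 with the GC trend removed. The share of calls that were higher was 46.4%, against 36.6% with total count scaling and 55.5% with the GC trend removed. Leaving out single libraries gave 4511 to 4856 higher and 5231 to 5604 lower. Counts halved and rounded up, an alternative chosen after seeing the data, gave 4805 and 5414. Same-numbered libraries had correlations of -0.0213 to 0.0264 in their deviations, and libraries of unlike number -0.0339 to 0.0267. Pairing by number was thus not seen, but values this small cannot tell whether the samples were paired. With the replicate number as a block the counts were 4693 and 5389, and with the block within genotype 4590 and 5243.

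The change turned sign for ZFP36L2 with total count scaling (-0.01), for THUMPD1 with total count scaling (-0.22) and without siTDP43 IP replicate 2 (-0.04, in a range up to 0.12 over the libraries left out), and for PCBP1 with the GC trend removed (0.36). The cause was not tested, and none of these genes passed the test in the reported setting. In siTDP43 IgG a count of 0 allows 1.07 to 1.21 CPM, so low IgG values there are bounds.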
